A study of Mus musculus with 14 samples.

Results

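Leukaemia inhibitory factor (LIF) signalling and the Msx homeobox genes were followed in the pre-implantation mouse uterus through a set of 10 listed genes: Lif, Lifr, Il6st, Stat3, Socs3, Osmr, Il6ra, Il11ra1, Msx1 and Msx2. A probe set, which is a group of short array probes for a transcript, was taken as a member where the platform annotation gave it a listed gene as its only symbol. This rule found 25 probe sets for 9 of the 10 genes, out of 18193 genes with such a probe set in the whole table, and used no measured value. Il11ra1 was not analysed here. Of the 25 probe sets, 16 for 8 genes lay above a filter at a signal of 134, the median level of all probe sets. The other 9, which include both probe sets of Lif, lay below it, and detection calls were not used, so whether Lif was above background was not tested.

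Whole uteri of C57BL/6 mice were profiled on day 3.5 of gestation, before implantation, with the morning of the vaginal plug counted as day 0.5, on 14 one-colour Affymetrix arrays. Some females carried a homozygous mutation (-/-) of Folr4, a folate receptor family gene now named Izumo1r, and the others were wild type; all were fed chow. They had been injected with saline or with folinic acid, a reduced folate, at 12.5 mg/kg, given into the peritoneum 2 times, at 10 and at 3 days ahead of mating. Of the wild-type females 4 had received saline and 3 folinic acid, and of the mutants 3 had received saline and 4 folinic acid, with 1 array each. The replicates are called biological in the labels, but title codes of unstated meaning are shared by some samples of the same group, so p-values measure the spread between these samples. The labels limit the mutation to no tissue, whole uterus mixes epithelium, stroma, muscle and blood cells, and in such bulk tissue fewer cells of a type and less RNA per cell cannot be told apart.

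LIF is a cytokine of the interleukin-6 family that the uterine glands secrete before the embryo attaches. It binds the LIF receptor (Lifr), which pairs with the shared signalling chain gp130 (Il6st), and the paired receptors activate the transcription factor STAT3. STAT3 then raises the transcription of Socs3, whose product binds the receptor complex and dampens the signal. Msx1 and Msx2 encode homeobox transcription factors of the uterine epithelium and the stroma below it, and their decline accompanies the passage of the uterus into the receptive state. Osmr, Il6ra and Il11ra1 encode receptors through which oncostatin M, interleukin-6 and interleukin-11 use the same gp130 chain.

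The promoters of Socs3, Osmr and Msx1 are shown because, among members above the filter, these genes held the widest differences for folinic acid in the mutants. They are the 250 bases before the RefSeq gene start in GRCm38.p6, read 5′ to 3′ on the strand of the gene, and all of these lie on the minus strand. Capitals mark matches to TTCNNNGAA, the letters of a STAT-type site, which reads the same on both strands.
Socs3, chr11:117969367-117969616: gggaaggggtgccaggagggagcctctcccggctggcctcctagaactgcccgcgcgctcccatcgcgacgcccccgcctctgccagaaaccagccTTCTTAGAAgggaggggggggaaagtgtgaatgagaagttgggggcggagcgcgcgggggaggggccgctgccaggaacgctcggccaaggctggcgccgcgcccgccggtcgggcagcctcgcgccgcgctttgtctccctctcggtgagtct
Osmr, chr15:6874314-6874563: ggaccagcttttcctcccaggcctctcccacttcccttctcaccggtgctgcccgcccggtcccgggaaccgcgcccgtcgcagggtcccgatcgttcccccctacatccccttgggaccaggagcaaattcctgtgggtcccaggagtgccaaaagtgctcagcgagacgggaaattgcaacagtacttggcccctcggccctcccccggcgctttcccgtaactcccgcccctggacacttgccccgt
Msx1, chr5:37824586-37824835: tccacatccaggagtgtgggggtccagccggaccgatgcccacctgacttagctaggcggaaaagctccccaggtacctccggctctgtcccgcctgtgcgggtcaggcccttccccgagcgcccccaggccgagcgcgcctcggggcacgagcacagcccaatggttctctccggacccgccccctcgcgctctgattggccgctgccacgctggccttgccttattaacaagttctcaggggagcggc
The Socs3 window held 1 match, starting at position -154 from the gene start, and a GC content of 71.6%. None of the other 11 member promoters, 12 in all over the 10 genes, held TTCNNNGAA, and 7.02% of 32851 mouse promoters of the same length did. The same site with 4 bases in its centre, searched on both strands, was in none of the 12 and in 5.85% of all promoters. TAATT, the core letters bound by many homeodomains, searched on both strands, was in the promoter of Msx2 with 3 matches and in 1 of the 2 promoters of Lifr, against 25.0% of all. A match describes letters in a window and is no measurement of binding.

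Array medians lay between signals of 129 and 157, and the 3-prime to 5-prime signal ratio of the actin control probe sets, a measure of RNA integrity, ran from 1.54 to 3.64. The probe set of Izumo1r was far below the filter, at 13.5 to 72.4 in the 7 wild-type arrays and 6.14 to 70.2 in the 7 mutant arrays. Those ranges overlapped, so it gave no check of the genotype labels, and whether its probes lie in the mutated part is not given in the sources used here. All 7 epithelial, 6 stromal and 6 smooth muscle markers were above the filter, and no marker was at 0. Mutant folinic acid replicate 1 stood apart from the other 13 arrays. Its summed signal of 6 leukocyte markers was 46909, against 9478 to 21557 in the others. That of 14 immediate-early genes, 13 of them above the filter, was 39047, against 13251 to 23954. The sum of its 7 epithelial markers was the lowest, at 23030 against 26554 to 50108. Differences that use the mutant folinic acid arrays are therefore mostly given without this array too, and the part these markers have in the results was not tested.

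After correction over 22519 probe sets none of the 16 member probe sets passed an adjusted p of 0.05 (limma, Benjamini-Hochberg) in any of the 7 comparisons made. The share of all probe sets that passed was 0% for folinic acid within either genotype and for the interaction, and 0.00444% for genotype under saline, genotype under folinic acid and both averaged effects. The differences below are therefore descriptions of these arrays, and unadjusted p-values are used to order them. With folinic acid in the mutants, 6 of the 16 had an unadjusted p below 0.05, against 12.8% of all probe sets. All 3 probe sets of Socs3, the one of Osmr and 1 of 4 of Il6st were higher, and 1 of 2 of Msx1 was lower. Without mutant folinic acid replicate 1 the count was 4, all higher, for Socs3 and Il6st, against 9.33% of all, and without mutant saline replicate 1 it was 2, both of Socs3, against 9.71%. With the actin ratio as a covariate it was 4, without Osmr and Msx1, against 13.1% of all. With folinic acid in wild type the count was 0, against 2.71% of all. With 1 probe set per gene, the count for folinic acid in the mutants was 2 of 8, Osmr and Socs3, both higher, against 13.3% of all.

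**Figure D1:**
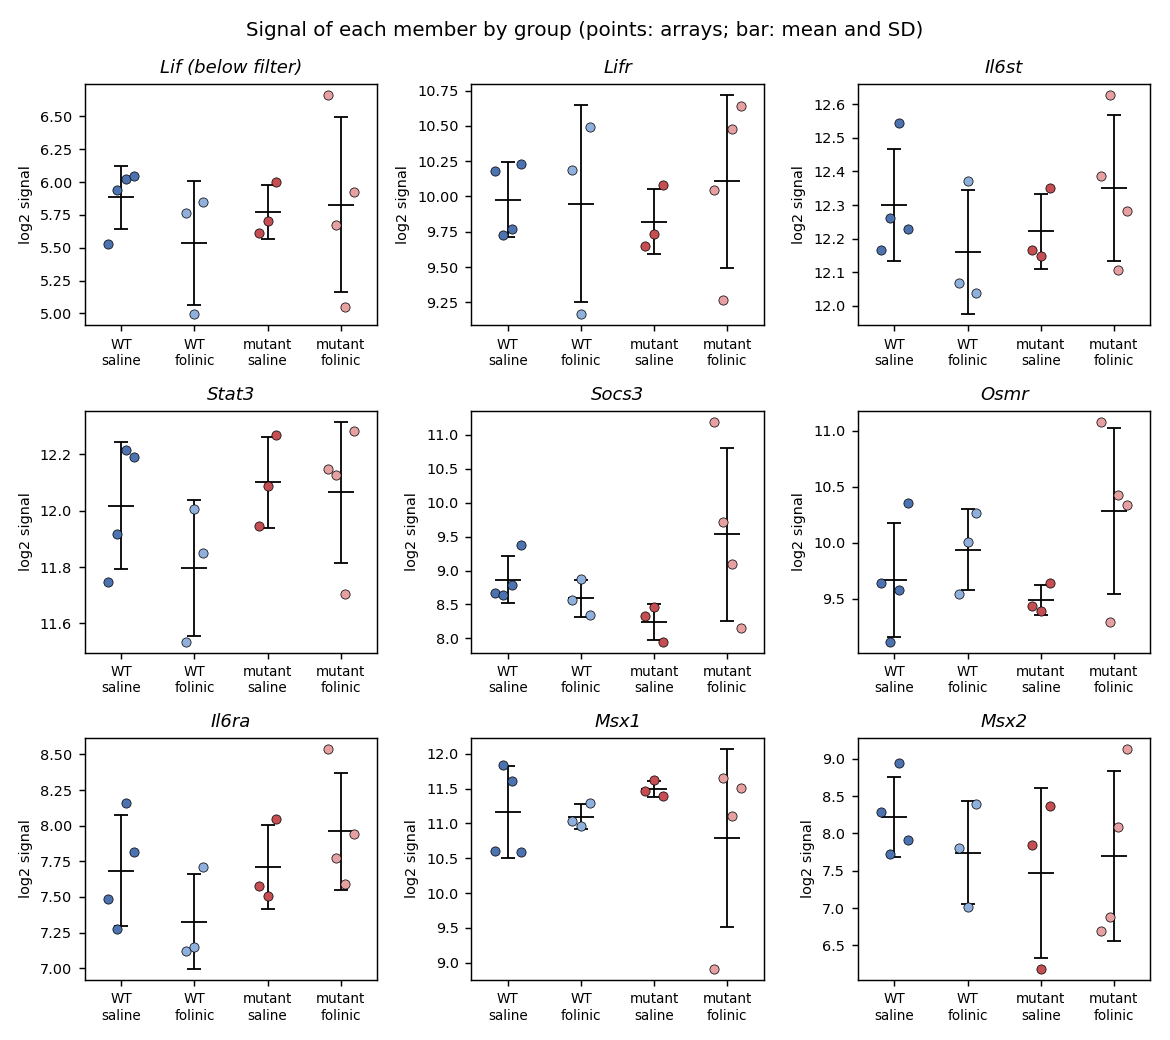
Signal of each of the 9 measured genes (log2, y axis; each panel has its own range) by group (x axis), with 1 point per array and bars for the mean and SD of each group. For each gene the probe set with the highest mean is drawn. Mutant folinic acid replicate 1 is the highest point for Socs3, at a signal of 2336, and the lowest for Msx1, at 482.

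The ligand itself was faint. Lif (probe set 1421207_at) gave signals of 46.1, 61.3, 65.1 and 66.0 in wild type with saline, 54.3, 31.8 and 57.6 in wild type with folinic acid, 48.9, 52.1 and 64.0 in mutants with saline, and 101, 51.1, 33.1 and 60.7 in mutants with folinic acid, each in replicate order. All 4 groups overlapped, and the highest value belonged to mutant folinic acid replicate 1. Its mean log2 signal stood at percentile 36.4 of all probe sets. In a fit without the filter the log2 difference for folinic acid was -0.35 ± 0.45 (SE) in wild type and 0.06 ± 0.45 in the mutants, and -0.22 ± 0.47 in the mutants without replicate 1. For genotype it was -0.11 ± 0.45 under saline and 0.29 ± 0.45 under folinic acid. The second Lif probe set, 1450160_at, ranged from 4.96 to 47.8 with no order by group. Differences in Lif of the size of these errors were thus not resolved.

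Other ligands of the gp130 family were mostly below the filter too. Of 9 further ligands and co-receptors, Il6, Il11, Osm, Cntfr and Il27ra were below it, and Ctf1 and Clcf1 were measured above it. Clcf1, which encodes cardiotrophin-like cytokine factor 1, had a log2 difference of 0.93 ± 0.34 for folinic acid in the mutants (unadjusted p = 0.0143, adjusted p = 0.280, limma), and 0.80 ± 0.36 without replicate 1. Ctf1, which encodes cardiotrophin-1, differed by 0.57 ± 0.27 for folinic acid in wild type (unadjusted p = 0.0481) and by -0.62 ± 0.27 for genotype under folinic acid (unadjusted p = 0.0334), the latter -0.44 ± 0.26 without mutant folinic acid replicate 1. Neither passed the adjusted threshold.

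Among the receptors, Lifr (1454984_at) gave 1163, 845, 875 and 1200 in wild type with saline, 1168, 574 and 1439 in wild type with folinic acid, 802, 853 and 1084 in mutants with saline, and 1058, 616, 1426 and 1593 in mutants with folinic acid. The groups overlapped throughout, with the replicate 2 arrays of both folinic acid groups lowest. The log2 differences for folinic acid were -0.03 ± 0.33 in wild type and 0.29 ± 0.33 in the mutants (0.31 ± 0.36 without replicate 1), and those for genotype were -0.16 ± 0.33 under saline and 0.16 ± 0.33 under folinic acid. Its 2 weaker probe sets, 1425107_a_at at 46.0 to 233 and 1450207_at at 2.56 to 42.7, were below the filter. The second was lower without overlap with folinic acid in wild type, at 2.87, 4.30 and 3.81 against 20.8, 5.06, 7.32 and 27.6 with saline. In the fit without the filter its differences were -1.74 ± 1.07 there, 1.42 ± 1.07 between the genotypes given folinic acid and 2.13 ± 1.51 in the interaction, with unadjusted p of 0.123, 0.204 and 0.179.

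The shared chain Il6st was among the steadiest members in its strong probe sets. Its main probe set, 1452843_at, gave 4601, 4910, 5967 and 4800 in wild type with saline, 4292, 5303 and 4208 in wild type with folinic acid, 4598, 4539 and 5222 in mutants with saline, and 5350, 6332, 4412 and 4981 in mutants with folinic acid. The groups overlapped, and the within-group SD of 0.18 on the log2 scale stood at percentile 12.9 of all probe sets above the filter. Its pairwise differences lay between -0.14 ± 0.15 (folinic acid in wild type) and 0.19 ± 0.15 (genotype under folinic acid), and the interaction was 0.27 ± 0.21. The strong probe set 1437303_at, at 2516 to 3747, had differences between 0.02 ± 0.15 and 0.09 ± 0.15 in the pairwise comparisons.

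The 2 weaker Il6st probe sets did not follow the strong ones. For 1421239_at the signals were 186, 131, 282 and 244 in wild type with saline, 257, 299 and 174 in wild type with folinic acid, 109, 172 and 159 in mutants with saline, and 294, 227, 220 and 265 in mutants with folinic acid. All 4 mutant folinic acid arrays lay above all 3 mutant saline arrays, a log2 difference of 0.79 ± 0.28 (limma unadjusted p = 0.0129, adjusted p = 0.273), and of 0.71 ± 0.31 without replicate 1. Averaged over genotypes the folinic acid difference was 0.51 ± 0.20 (unadjusted p = 0.0211, adjusted p = 0.443). The other, 1460295_s_at, differed by 0.51 ± 0.24 for folinic acid in the mutants and 0.45 ± 0.26 without replicate 1, and the genotype differences under saline were -0.50 ± 0.24 for it and -0.49 ± 0.28 for 1421239_at. The 4 probe sets of the gene therefore disagree, with 0.13 ± 0.15 and 0.09 ± 0.15 for the strong pair in the same mutant comparison.

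Osmr encodes the oncostatin M receptor chain. Its probe set 1418674_at gave 797, 556, 764 and 1307 in wild type with saline, 748, 1030 and 1231 in wild type with folinic acid, 691, 673 and 800 in mutants with saline, and 2168, 628, 1381 and 1292 in mutants with folinic acid. Of the mutant folinic acid arrays 3 were above every mutant saline array, and replicate 2 was below them all. The log2 difference was 0.80 ± 0.34 (limma unadjusted p = 0.0350, adjusted p = 0.349) and 0.53 ± 0.32 without replicate 1. It was 1.13 ± 0.28 without replicate 2, where the limma adjusted p was 0.0476. In that fit 19.5% of all probe sets had an unadjusted p below 0.05, against 12.8% with all arrays. With all arrays, the Osmr difference is further described by the average over genotypes. Averaged over genotypes it was 0.53 ± 0.24 (unadjusted p = 0.0446, adjusted p = 0.526). Under saline the genotype difference was -0.18 ± 0.34.

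A fainter Osmr probe set below the filter, 1418675_at, gave 33.5, 39.7 and 85.0 in mutants with saline and 147, 90.6, 107 and 146 in mutants with folinic acid, with no overlap. In wild type it gave 137, 70.3, 106 and 104 with saline and 87.8, 87.2 and 84.3 with folinic acid. In the fit without the filter its difference was 1.31 ± 0.38 in the mutants (unadjusted p = 0.00351, adjusted p = 0.321) and 1.22 ± 0.43 without replicate 1. Between the genotypes under saline it was -1.07 ± 0.38 (limma unadjusted p = 0.0132, adjusted p = 0.999). Its interaction was 1.54 ± 0.54 (limma unadjusted p = 0.0117, adjusted p = 0.938), and that of 1418674_at was 0.53 ± 0.49. Without the filter, 2 of 25 member probe sets were below 0.05 for genotype under saline (4.73% of all) and 4 in the interaction (5.06%), with 1418675_at in both. The third, 1459217_at, differed by -0.21 ± 0.55 for folinic acid in the mutants and 0.10 ± 0.55 for genotype under saline.

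Il6ra encodes the interleukin-6 receptor. Its probe set 1452416_at gave 180, 155, 286 and 225 in wild type with saline, 139, 142 and 209 in wild type with folinic acid, 191, 182 and 265 in mutants with saline, and 372, 219, 193 and 245 in mutants with folinic acid. The groups overlapped. Under folinic acid the mutants differed from wild type by 0.63 ± 0.28 (limma unadjusted p = 0.0373, adjusted p = 0.999), and by 0.44 ± 0.27 without mutant folinic acid replicate 1. It was the only 1 of the 16 with an unadjusted p below 0.05 in that comparison, against 3.81% of all probe sets. Leaving out each array in turn gave 0 to 2, with 0 without mutant folinic acid replicate 1 or wild-type folinic acid replicate 1. Without wild-type folinic acid replicate 2 or mutant folinic acid replicate 4 the 2 were both of Socs3, and Il6ra was not among them. The same held with the replicate number as a block. The fainter 1422270_a_at, below the filter, gave 150, 127, 179 and 111 in wild type with saline and 94.8, 76.8 and 70.0 with folinic acid, without overlap. Its difference was -0.80 ± 0.38 in the fit without the filter (unadjusted p = 0.0491, adjusted p = 0.99997), and mutant arrays lay between 48.2 and 132.

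Stat3, the transcription factor of the relay, varied little in its main probe set. Its probe set 1426587_a_at gave 3439, 3866, 4760 and 4669 in wild type with saline, 2968, 4117 and 3687 in wild type with folinic acid, 3941, 4351 and 4937 in mutants with saline, and 4536, 4471, 3341 and 4985 in mutants with folinic acid. The groups overlapped. Folinic acid differences were -0.22 ± 0.17 in wild type and -0.03 ± 0.17 in the mutants (-0.06 ± 0.19 without replicate 1), and genotype differences 0.08 ± 0.17 under saline and 0.27 ± 0.17 under folinic acid. The 2 other probe sets above the filter had differences for folinic acid in the mutants of 0.13 ± 0.17 and 0.31 ± 0.30. The probe set 1424272_at was below the filter at 56.6 to 214. These are transcript levels, and the phosphorylation that activates STAT3 was not measured.

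The rest of the relay and its brakes showed no common direction. Of 12 further genes, 10 were measured above the filter, 0 passed the adjusted threshold, and for folinic acid in the mutants 5 were higher and 5 lower with a median log2 difference of 0.00. Socs2, a brake on growth hormone and related receptors, had 0.54 ± 0.20 in that comparison (unadjusted p = 0.0158, adjusted p = 0.286), and 0.47 ± 0.21 without replicate 1. Jak2, a kinase of the receptor complex, was higher in mutants than wild type under saline by 0.41 ± 0.17 (unadjusted p = 0.0287, adjusted p = 0.9998).

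Among the member probe sets above the filter, 1416576_at and 1455899_x_at of Socs3, the feedback inhibitor, held the widest differences for folinic acid in the mutants. Its probe set 1455899_x_at gave 408, 397, 442 and 662 in wild type with saline, 378, 471 and 323 in wild type with folinic acid, 322, 353 and 248 in mutants with saline, and 2336, 838, 546 and 285 in mutants with folinic acid. Replicate 1 of the last group was 9.43 times the lowest array, and 3 of its 4 arrays lay above all 3 mutant saline arrays, with replicate 4 inside their range. The group means were 477 ± 125 (SD, n = 4), 391 ± 74.5 (n = 3), 308 ± 54.1 (n = 3) and 1001 ± 918 (n = 4).

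The other Socs3 probe sets also had this array highest. For 1416576_at the signals were 249, 291, 394 and 455, then 317, 433 and 125, then 78.5, 238 and 232, then 817, 361, 369 and 308 in the same order of groups, and here all 4 mutant folinic acid arrays were above all 3 mutant saline arrays. For 1456212_x_at they were 444, 342, 411 and 533, then 294, 432 and 259, then 302, 247 and 211, then 1338, 449, 501 and 282. Under saline all 3 mutant arrays were below all 4 wild-type arrays for each of the 3 probe sets. The suffix x marks probe sets whose probes can match other transcripts.

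For folinic acid in the mutants the Socs3 log2 differences were 1.29 ± 0.48 (1455899_x_at), 1.39 ± 0.47 (1416576_at) and 1.11 ± 0.38 (1456212_x_at), with limma unadjusted p of 0.0167, 0.00919 and 0.0107 and adjusted p of 0.290, 0.250 and 0.258. Without replicate 1 they were 0.74 ± 0.33, 1.08 ± 0.46 and 0.67 ± 0.26, with unadjusted p of 0.0404, 0.0325 and 0.0230. Without replicate 4 the first was 1.75, and without mutant saline replicate 1 the second was 0.86. In wild type the folinic acid differences were -0.27 ± 0.48, -0.39 ± 0.47 and -0.41 ± 0.38.

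The Socs3 difference between the genotypes under saline was -0.62 ± 0.48, -1.05 ± 0.47 and -0.77 ± 0.38 in the same order of probe sets, the second with an unadjusted p of 0.0396 and all with an adjusted p of 0.9998 (limma). That second probe set was the only 1 of the 16 with an unadjusted p below 0.05 in this comparison, against 3.11% of all, and its difference was -0.52 without mutant saline replicate 1, whose signal of 78.5 was the lowest of the 14. The count over the members in this comparison ran from 0 (without that array, or without wild-type saline replicate 3 or 4) to 3 (without wild-type saline replicate 2 or mutant folinic acid replicate 1) over the arrays left out in turn. It was 4, Msx1 and all 3 of Socs3, in a fit on the compared groups alone, and 0 after quantile normalization and with the actin ratio as a covariate. The interaction, which asks whether folinic acid acts differently in the genotypes, was 1.56 ± 0.68, 1.78 ± 0.66 and 1.52 ± 0.54, with unadjusted p of 0.0357, 0.0163 and 0.0127 and an adjusted p of 0.905. With 1 probe set per gene, 1 of 8, Socs3, was below 0.05 in the interaction, against 5.1% of all. The 3 of Socs3 were the only ones of the 16 below 0.05 in the interaction, against 4.90% of all probe sets. They stayed 3 without mutant folinic acid replicate 1, against 4.06% of all, with differences of 1.01 ± 0.45, 1.47 ± 0.62 and 1.09 ± 0.36, and were 1 without mutant saline replicate 1 or without wild-type folinic acid replicate 3.

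Leukocyte and immediate-early markers are given beside Socs3. Mutant folinic acid replicate 1 was highest for all 3 Socs3 probe sets and for both marker sums. Below it, the next highest array was mutant folinic acid replicate 2 for 1455899_x_at, with a leukocyte sum of 9594, and wild-type saline replicate 4 for the other 2 probe sets, with a leukocyte sum of 21557, the highest of the other 13. Of the 6 leukocyte markers 5 were lower in mutants under saline, with a median log2 difference of -0.43, and 5 were higher with folinic acid in the mutants, with a median of 0.85, and of 0.45 without replicate 1. The only 1 with a limma unadjusted p below 0.05 under saline was higher, against 3.11% of all probe sets. With folinic acid in the mutants 3 were below 0.05, all higher (12.8% of all). Without replicate 1 only 1 was, and it was lower (9.33% of all). None passed the adjusted threshold, and their part in the Socs3 values was not tested.

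Msx1 encodes a homeobox repressor that falls when the uterus becomes receptive. Its probe set 1448601_s_at gave 1553, 3668, 3132 and 1544 in wild type with saline, 2095, 1999 and 2519 in wild type with folinic acid, 2825, 3162 and 2702 in mutants with saline, and 482, 3214, 2200 and 2912 in mutants with folinic acid. Mutant folinic acid replicate 1 was far below every other array, and the other 13 arrays overlapped. The probe set 1417127_at gave 493, 1149, 760 and 442, then 566, 526 and 784, then 1008, 1602 and 856, then 136, 935, 506 and 895, with the same array lowest.

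The Msx1 log2 difference for folinic acid in the mutants was -0.70 ± 0.50 and -1.19 ± 0.53 in the 2 probe sets, the second with a limma unadjusted p of 0.0405 and an adjusted p of 0.366. Without replicate 1 these were -0.08 ± 0.29 and -0.57 ± 0.35. In wild type they were -0.06 ± 0.50 and -0.10 ± 0.53, and under saline the mutants differed from wild type by 0.34 ± 0.50 and 0.75 ± 0.53. Under folinic acid the genotype difference of the first was -0.31 ± 0.50, and 0.32 ± 0.29 without mutant folinic acid replicate 1, so its sign rested on that array.

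The epithelial marker sums are given beside Msx1. The 3 lowest Msx1 signals, 482, 1544 and 1553, came from arrays with epithelial sums of 23030, 31561 and 26554, all below the 40461 to 45221 of the mutant saline arrays. The 3 highest Msx1 signals, 3668, 3214 and 3162, came with sums of 44085, 41518 and 40461. Low sums of 27178 and 30333 came with Msx1 signals of 2200 and 2095. The part of epithelial content in the Msx1 values was not tested.

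Msx2, its close relative, had the largest within-group spread of the member probe sets above the filter. Its probe set 1449559_at gave 312, 212, 491 and 241 in wild type with saline, 225, 130 and 338 in wild type with folinic acid, 231, 72.8 and 330 in mutants with saline, and 103, 118, 271 and 562 in mutants with folinic acid. The groups overlapped, and mutant folinic acid replicate 1 was second lowest of the 14. Folinic acid differences were -0.47 ± 0.59 in wild type and 0.23 ± 0.59 in the mutants, the latter 0.56 ± 0.59 without replicate 1. The genotype difference under saline was -0.75 ± 0.59, and -0.11 without mutant saline replicate 2. The other probe set, 1438351_at, was below the filter at 24.6 to 130.

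**Figure D2:**
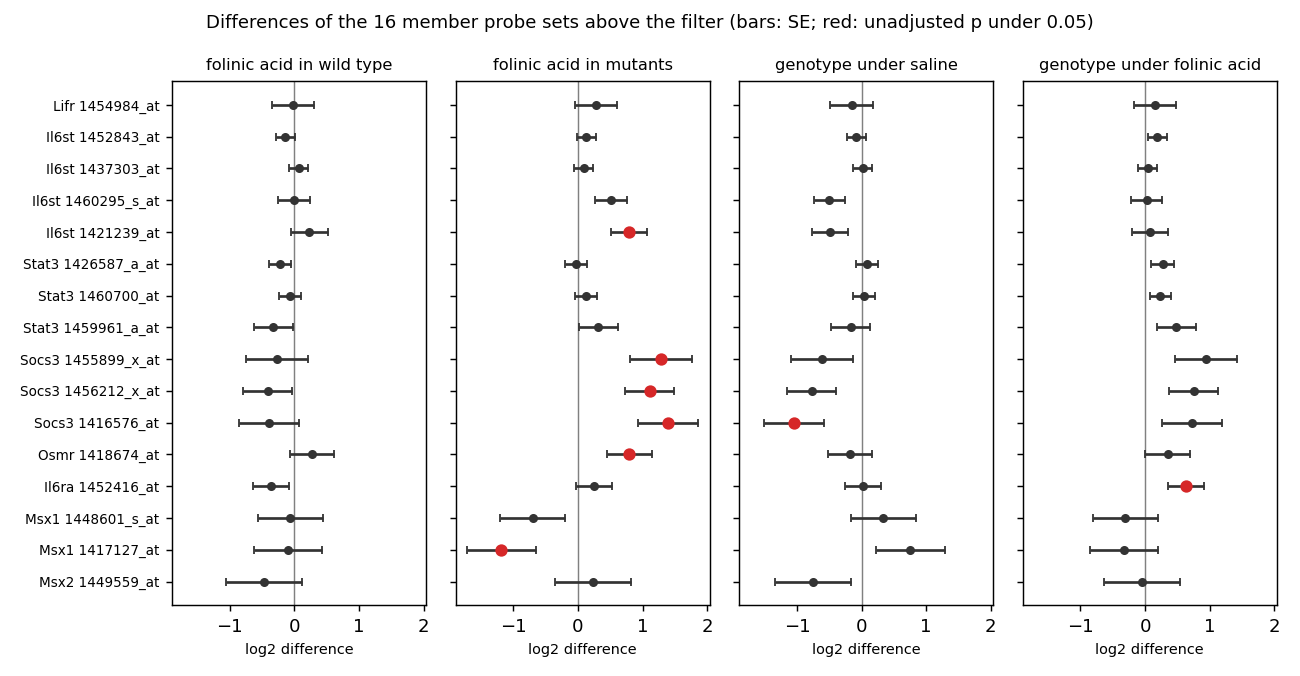
Log2 differences (x axis) with SE bars for the 16 member probe sets above the filter (rows) in the 4 pairwise comparisons (panels). Red points have an unadjusted p below 0.05, and none passed after adjustment. The red points of the second panel, folinic acid in the mutants, are the 3 of Socs3, with Osmr and 1 of Il6st to the right of 0 and 1 of Msx1 to the left.

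Overlap between pairs of groups was also counted over the members. No member probe set above the filter was free of overlap for folinic acid in wild type (4.96% of all probe sets) or for genotype under folinic acid (4.94%). Below the filter, Lifr 1450207_at and Il6ra 1422270_a_at were lower without overlap in the first. Stat3 1424272_at was lower and Osmr 1418675_at higher without overlap in the second. Osmr 1418675_at was also higher without overlap for folinic acid in the mutants. The share of all probe sets below the filter that were free of overlap was not counted. Above the filter the count was 2 of 16 for folinic acid in the mutants (10.3% of all), 1 of Il6st and 1 of Socs3. It was 3 of 16 for genotype under saline (4.42% of all), all of Socs3, which share 1 gene. Without mutant folinic acid replicate 1 the counts were the same, with 13.2% of all for folinic acid in the mutants and 8.47% for genotype under folinic acid. Averaged over injections, genotype gave 0 of 16 with an unadjusted p below 0.05, against 2.0% of all, and 1, Msx1, without mutant folinic acid replicate 1, against 2.35%. Averaged over genotypes, folinic acid gave 2 of 16, Osmr and Il6st, against 9.21% of all, and 0 without mutant saline replicate 1 or without wild-type folinic acid replicate 2, and with the actin ratio as a covariate. With 1 probe set per gene the median log2 difference of the 8 genes was 0.24 for folinic acid in the mutants and -0.18 in wild type, against 0.01 over all probe sets in both. It was -0.12 for genotype under saline and 0.23 under folinic acid, against -0.02 and -0.01. Without mutant folinic acid replicate 1 it was 0.21 for folinic acid in the mutants and 0.26 for genotype under folinic acid. The comparisons of folinic acid in the mutants and of genotype under folinic acid share the mutant folinic acid arrays.

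The members differed widely in their spread among replicates. On the log2 scale the within-group SD was 0.91 for Msx2 (percentile 98.7 of all probe sets above the filter), 0.79 for Msx1 (97.7), 0.74 for Socs3 (97.0), 0.52 for Osmr (89.5) and 0.49 for Lifr (87.1). Il6ra was nearer the middle at 0.37 (69.8), and Stat3 at 0.23 (27.1) and Il6st at 0.18 (12.9) were below the median of 0.29. These are the probe sets with the highest mean. Weaker ones above the filter spread more, at 0.43 (81.0) for Stat3 1459961_a_at, 0.37 (71.3) for Il6st 1421239_at and 0.34 (64.4) for Il6st 1460295_s_at.

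**Figure D3:**
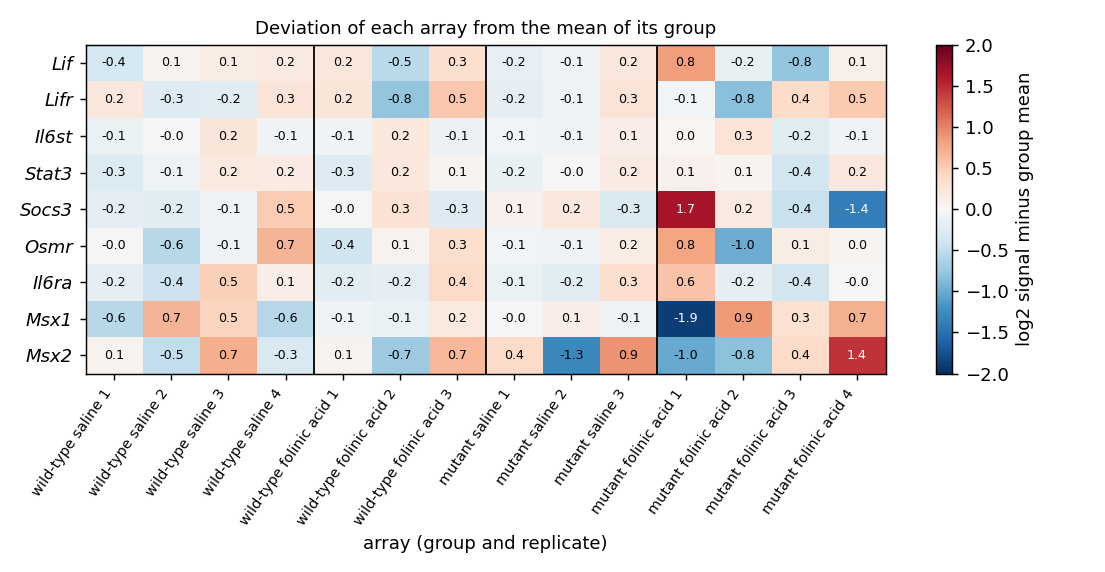
Deviation of each array (columns, by group and replicate) from the mean of its group, in log2 signal, for the 9 measured genes (rows, 1 probe set each); red is above and blue below the group mean. In mutant folinic acid replicate 1, Socs3, Lif, Osmr and Il6ra are above and Msx1 and Msx2 below, while the rows of Il6st and Stat3 stay pale in all 14 arrays.

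Pairs of members were compared across the 14 arrays after removal of the group means, with permutations within groups and adjustment over 5 pairs. Lifr and Il6st, the chains of the LIF receptor, were opposed, with Pearson r = -0.74 (permutation p = 0.0213, adjusted 0.107) and Spearman rho = -0.67 (permutation p = 0.0299, adjusted 0.149). Without the 2 arrays farthest from the median of Lifr r was -0.47, so part of the relation rests on them, and it did not pass the adjusted threshold.

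For Lif and Socs3 r was 0.41 and rho 0.09 (permutation p = 0.428 and 0.799, adjusted 0.587 and 0.799), and r was -0.28 without the 2 farthest arrays. For Lif and Msx1 r was -0.44 and rho -0.22 (permutation p = 0.432 and 0.499, adjusted 0.587 and 0.799), and 0.18 without the 2 farthest. For Stat3 and Socs3 r was 0.08 and rho 0.17 (permutation p = 0.832 and 0.642, adjusted 0.832 and 0.799), and -0.09 without the 2 farthest. For Msx1 and Msx2 r was 0.34 and rho 0.26 (permutation p = 0.469 and 0.453, adjusted 0.587 and 0.799), and 0.31 without the 2 farthest. Both Lif relations changed sign with the 2 arrays left out, so they rest on those arrays.

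The genes whose residual pattern over the 14 arrays was most like that of 3 members were picked from 11261 genes by Pearson r, which is a description with no test. For Msx1 they were Sox17 (r = 0.972, and 0.932 without mutant folinic acid replicate 1), Pkhd1 (0.955 and 0.913), Large2 (0.953 and 0.902), Ank3 (0.952 and 0.876) and Kctd14 (0.949 and 0.909). For Socs3 they were H6pd (0.870 and 0.721), Slit3 (0.867 and 0.834), Glipr2 (0.865 and 0.805), Cmtm7 (0.854 and 0.675) and Sod2 (0.823 and 0.711). For Lif, below the filter, they were Tnip1 (0.885 and 0.813), Sptlc2 (0.864 and 0.795), Skil (0.859 and 0.788), Cxcr4 (0.854 and 0.778) and Setmar (0.820 and 0.700). The arrays are of a mixed tissue, and the part of cell content in these values was not tested.

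Genes known to respond to STAT3 had mostly positive differences for folinic acid in the mutants, none past the adjusted threshold. Of 14 listed, 13 were above the filter and 0 passed in any comparison. In the mutants 11 of 13 had a positive difference, with a median of 0.49, against 0.01 over all probe sets. Without replicate 1 there were again 11, with a median of 0.19. By unadjusted p below 0.05, Fos (1.62 ± 0.61) and Irf1 (0.59 ± 0.26) were higher and Myc (-0.77 ± 0.33) lower, with adjusted p of 0.291, 0.367 and 0.347, a count of 3 of 13 where 12.8% of all probe sets were below 0.05. Without replicate 1 they were 0.87 ± 0.36, 0.49 ± 0.28 and -0.74 ± 0.36, and Fos alone of the 13 was below 0.05, against 9.33% of all. The leukocyte median of 0.45 in that fit was larger than the list's 0.19, and its part was not tested. The list's summed signal in replicate 1 was 30491, against 13432 to 19898 in the other 13 arrays.

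Immediate-early genes, which many stimuli and tissue handling switch on within minutes, share Fos and Junb with that list. All 13 measured were above their own mean over the arrays in mutant folinic acid replicate 1. For folinic acid in the mutants 11 of 13 were positive with a median of 0.49, and 0.28 without replicate 1, and 4 had an unadjusted p below 0.05, among them Nr4a1 (0.75 ± 0.27) and Atf3 (0.70 ± 0.28), with adjusted p of 0.273 and 0.316, against 12.8% of all probe sets. Without replicate 1 the count was 2, against 9.33%, with Nr4a1 at 0.55 ± 0.25 and Atf3 at 0.55 ± 0.29. For genotype under folinic acid all 13 were positive with a median of 0.46, and 12 with a median of 0.17 without that array.

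Other genes of implantation had mostly negative differences in the same comparison. Of 20 listed, 17 were above the filter and 0 passed the adjusted threshold. For folinic acid in the mutants 14 of 17 were negative with a median of -0.32, and -0.24 without replicate 1, and 6 had an unadjusted p below 0.05, all lower, against 12.8% of all probe sets. Without replicate 1 that count was 3, against 9.33%. The smallest p belonged to Ihh (-1.61 ± 0.56, adjusted p = 0.259), an epithelial signal induced by progesterone, Fst (-1.73 ± 0.63, adjusted p = 0.282), which encodes the activin binder follistatin, and Esr1 (-0.31 ± 0.12, adjusted p = 0.288), the oestrogen receptor. Without replicate 1 these were -1.14 ± 0.50, -2.06 ± 0.64 and -0.24 ± 0.12. The genotype difference of Fst under saline was 1.55 ± 0.63 (unadjusted p = 0.0260).

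Stromal marker sums are given beside this list, which holds stromal genes such as Hand2 and Hoxa10. The sum of 6 stromal markers was 99165 to 109328 with folinic acid in the mutants, below the 112448 to 142353 with saline, and 95129 to 101346 in wild type, below the 116516 to 135407 with saline. Of the 6 markers 5 had a negative difference in each genotype, with medians of -0.05 in the mutants and -0.32 in wild type. Without mutant folinic acid replicate 1 all 6 were negative in the mutants, with a median of -0.16. In the fit on all arrays 4 of the 6 were lower in wild type with a limma unadjusted p below 0.05 (2.71% of all probe sets). In the mutants 2 were (12.8% of all). None of the 6 passed the adjusted threshold. The implantation list had a median of -0.04 for folinic acid in wild type, with 10 of 17 negative. The part of stromal content in the implantation genes was not tested. The epithelial markers had a median of -0.27 in the mutants, and of -0.09 without replicate 1.

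**Figure D4:**
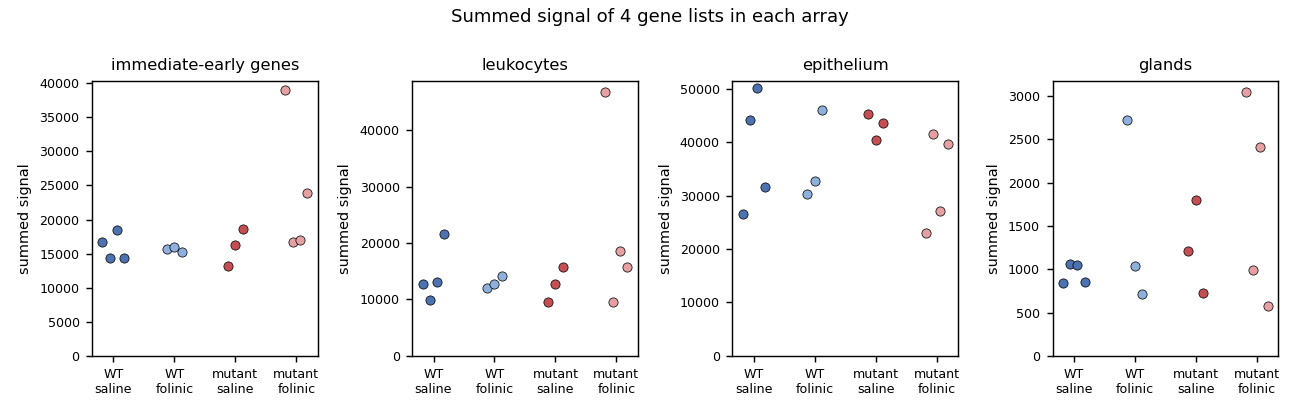
Summed signal (y axis, linear, from 0) of immediate-early, leukocyte, epithelial and gland marker genes, with 1 point per array, by group (x axis). Mutant folinic acid replicate 1 has the highest leukocyte sum, 46909, and the highest immediate-early sum, 39047, and the lowest epithelial sum, 23030. Its gland sum, 3051, is the highest and is taken over 5 gland genes, of which only 2, Foxa2 and Cxcl15, are above the filter. Of those 2 only 1 was above its own mean over the arrays in this array. The lowest of its 5 gland signals was 199, against lowest signals of 2.65 to 80.1 in the other 13 arrays. Whether the gland genes rose together was not tested.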

How the data were processed

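Each probe set has 1 intensity per array on a linear scale, deposited as the authors made it with MAS5 (per the submitters' processing notes, version not given). Trizol RNA was labelled by the one-cycle assay, per the labels' protocols. The files give no counts, so the number of arrays limits the precision. From 45101 probe sets 64 controls were left out, signals below 1 were raised to 1 (0.505% of values), log2 was taken, and the 22519 probe sets at or above the median mean log2 signal (a signal of 134) were kept. Group differences were fitted in limma 3.58.1 (R 4.3.3) on 4 group means (10 residual and 5.04 prior degrees of freedom, trended variance), two-sided, with Benjamini-Hochberg adjustment over all kept probe sets, and the procedure was tested on simulated data. Values of probe sets below the filter come from a fit without it. Where a gene is named without a probe set, the one with the highest mean was used. The correlations used 100000 two-sided permutations. Promoters came from RefSeq (GRCm38.p6). The members, the lists and the naming rule (members, then list genes with the smallest p, at most 3 per list and comparison) were chosen with earlier results of these data known. The alternatives tried were quantile normalization, an offset of 16, no filter, 1 probe set per gene, no variance trend, the compared groups alone, a replicate block, the actin ratio as a covariate and leaving out each array.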

Additional observations from a re-analysis of the deposited data

Results flagged for a closer look

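Over 50 checks of a member probe set in a group of 4 arrays, 1 array stood far from the other 3 by the ratio of its gap to the range of the group. It was mutant folinic acid replicate 2 for the fainter Lif probe set, 1450160_at, with a signal of 5.05 against 23.3 to 29.2 in the other 3 and a ratio of 0.870. Both levels are far below the filter, and chance alone flags some such groups.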

How the results depend on the processing

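Of 187 results under 22 other settings, 3764 values were labelled as keeping direction and side of the threshold, and 0 as weaker. No member passed the threshold in the main fit, so none could fall below it, and the last count is no measure of stability. A difference smaller than its SE in the main fit was taken to have no direction. These labels do not show a loss of size. Without mutant folinic acid replicate 1, Msx1 1448601_s_at went from -0.70 ± 0.50 to -0.08 ± 0.29 for folinic acid in the mutants. Its genotype difference under folinic acid went from -0.31 ± 0.50 to 0.32 ± 0.29. Leaving out mutant folinic acid replicate 2 gave 1 member called for folinic acid in the mutants, Osmr, at 1.13 with a limma adjusted p of 0.0476. The range over the arrays left out in turn was 0 to 1. Without that array the share of all probe sets with an unadjusted p below 0.05 also rose, from 12.8% to 19.5%. The correlation of Lifr and Il6st ranged from -0.85 to -0.61, and the first value, without mutant saline replicate 3, had an adjusted p of 0.0437. The folinic acid difference of Stat3 1459961_a_at in wild type ranged from -0.57 to 0.027 over the arrays left out, with the sign reversed without wild-type folinic acid replicate 1. The causes were not tested. Same-numbered arrays shared only a number (19 pairs, r from -0.34 to 0.35, 6 over 0.1), 8 of 14 arrays were closest to an array of their own number, and the fit with the replicate number as a block called 0 members in every comparison. A fit on the compared groups alone was not run for contrasts that use all 4 groups, and 1 probe set per gene was run for the counts. With 3 or 4 arrays a group, differences near 1 SE were not resolved, and signals below the filter limit Lif.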
